A study of Mus musculus with 15 samples.

Results

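The genes described are 9 coagulation and platelet genes, chosen by symbol (F3, F10, F13a1, Tfpi, Tfpi2, Thbd, Procr, Pf4 and Kng2), among 30281 named genes measured in mouse skin. All 9 were present in the deposited tables and all 9 passed the filter on low counts, as did 17136 genes in all. RNA was sequenced from skin of C57BL/6 mice at day 0, 1, 3, 5 and 7 of a wounding course, with 3 libraries at each time and 15 in all. The groups used are therefore day 0, day 1, day 3, day 5 and day 7 skin of this strain. No transgene, deletion or drug is named in the labels for any of these groups. The labels give the wound as the stress of every library, day 0 included, and do not say how day 0 skin was taken, what size the wounds were, or whether animals were pooled. Separate animals behind the 3 libraries of each day are not named in the labels, and the p-values given here therefore speak of the spread among these libraries only, which may be technical.

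Clotting outside vessels begins when tissue factor, the membrane protein encoded by F3, meets factor VII in blood and activates factor X (F10). Activated factor X makes thrombin, thrombin makes fibrin, and factor XIII, whose catalytic A chain is encoded by F13a1, cross-links the fibrin into the clot on which skin repair starts. Tissue factor pathway inhibitor (Tfpi) blocks the first step, its relative Tfpi2 inhibits serine proteases of the surrounding matrix, and thrombomodulin (Thbd) and the endothelial protein C receptor (Procr) turn thrombin towards activating the anticoagulant protein C. Pf4, also called Cxcl4, is a chemokine stored in platelet granules, and its transcript is also found in some tissue macrophages, as is that of F13a1. Kng2 is a mouse kininogen, a relative of the liver protein that carries bradykinin.

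The 150 bases before the transcription start are shown for the 4 genes that changed over the course and have an entry in the RefSeq promoter table (Pf4, Tfpi2, F10 and Kng2), and for F3, which starts the cascade and was not called. Of the 9 genes, 8 matched the table, and Thbd did not. The sequences are credited to RefSeq, GRCm38.p6, and run 5′ to 3′ on the gene's strand. Tfpi2 has 3 starts in the table, of which the one nearest to the GENCODE M21 start is shown. Capitals mark letters that match 1 of 6 motifs on either strand. The motif of AP-1 factors was searched as TGANTCA. The GC box known from Sp1 was searched as GGGCGG, and the CCAAT box as those letters. For erythroid and megakaryocyte factors of the GATA family the letters were AGATAA. The sequence of the classical box bound by the basal transcription machinery was TATAAA, and the one of STAT factors was TTCNNNGAA. No 2 matches overlapped in the windows printed.
Pf4 (chr5:90772285-90772434, plus strand): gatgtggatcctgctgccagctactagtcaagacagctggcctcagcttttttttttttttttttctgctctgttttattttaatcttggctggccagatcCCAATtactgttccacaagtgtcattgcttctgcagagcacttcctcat
Tfpi2 (chr6:3968376-3968525, minus strand): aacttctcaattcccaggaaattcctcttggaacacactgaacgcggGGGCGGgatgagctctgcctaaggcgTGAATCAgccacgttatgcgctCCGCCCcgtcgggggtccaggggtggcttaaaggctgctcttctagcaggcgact
F10 (chr8:13037158-13037307, plus strand): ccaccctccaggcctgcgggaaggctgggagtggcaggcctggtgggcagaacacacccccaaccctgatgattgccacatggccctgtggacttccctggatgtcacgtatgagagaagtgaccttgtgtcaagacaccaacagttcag
Kng2 (chr16:23029102-23029251, minus strand): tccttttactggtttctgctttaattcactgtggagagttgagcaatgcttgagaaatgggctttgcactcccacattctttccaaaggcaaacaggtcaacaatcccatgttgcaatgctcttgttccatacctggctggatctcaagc
F3 (chr3:121723387-121723536, plus strand): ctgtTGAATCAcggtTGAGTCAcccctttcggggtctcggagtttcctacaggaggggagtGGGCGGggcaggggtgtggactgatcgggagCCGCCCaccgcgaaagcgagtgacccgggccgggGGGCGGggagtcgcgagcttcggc
The AP-1 motif was found at 2 places before F3, starting 146 and 135 bases before the transcription start, and at 1 place before Tfpi2, 77 bases before it, against 4.24% of the 32851 windows of the same length in the table that hold it at all. GC boxes stood 3 times before F3 and 2 times before Tfpi2 (28.6% of all windows hold one), and 1 CCAAT box stood 49 bases before the start of Pf4 (24.5% of all windows). None of the 6 motifs was found in the windows of F10 and Kng2. The GATA, TATA box and STAT motifs are held by 5.65%, 7.57% and 4.09% of all windows, and were not found in the 5 printed. A match describes the letters only.

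Each library held 37995791 to 60347424 estimated counts over named genes. Levels are given as CPM, counts divided by a library size that TMM scaling had adjusted, with no correction for gene length, so levels are compared between times for a gene and not between genes. Calls rest on the quasi-likelihood test of edgeR, with an adjusted p (Benjamini-Hochberg, over all 17136 genes) below 0.05. Some libraries stood apart from others of their time in marker genes. Summed hair follicle keratins (7 genes) stood at 9043 CPM in day 5 replicate 2 and 11220 CPM in day 7 replicate 3, against 9.31 to 1113 CPM in the other 13 libraries. Summed wound-edge keratins (4 genes) stood at 2206 CPM in day 0 replicate 1, against 364 and 485.5 CPM in day 0 replicates 2 and 3. Neutrophil markers summed over 6 genes stood at 807 to 1274 CPM at day 1, against 58.0 to 201 CPM at day 0, and all 6 rose (4.22% of all genes called as higher). The tissue label was met by basal keratinocyte markers (5 genes), which summed to 2561 to 9407 CPM over the 15 libraries. Markers of skeletal muscle (4 genes) summed to 1689 to 7889 CPM and those of adipocytes (3 genes) to 341 to 1251 CPM. Both were lowest in day 7 replicate 3. Fibroblast markers (5 genes) summed to 40160 to 47510 CPM at day 0 and 19120 to 36590 CPM at day 1.

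Over the whole course 5 of the 9 genes changed (Pf4, Tfpi2, Kng2, Thbd and F10), where 13.9% of all genes tested were called by the same F test of the 4 differences from day 0. The 9 were chosen with earlier results of these data known, so the share over all genes is given as a description only. Pf4 was the most changed of the 9 and stood at rank 7 of 17136 genes by its p-value (F = 47.9, adjusted p = 0.000411). Tfpi2 followed at rank 136 (F = 19.5, adjusted p = 0.00326), Kng2 at rank 817 (adjusted p = 0.0152), Thbd at rank 1214 (adjusted p = 0.0229) and F10 at rank 1399 (adjusted p = 0.027). F13a1 (adjusted p = 0.0793), Tfpi (0.438), F3 (0.551) and Procr (0.751) were not called over time by edgeR.

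The 5 changed genes did not share a course. Pf4, Thbd and F10 had their highest mean at day 1, Kng2 at day 3 and Tfpi2 at day 7. At day 1 against day 0, Pf4 and Kng2 rose and 7 did not pass, where 7.58% of all genes were called. At day 3 against day 0, Kng2 rose and 8 did not pass (0.788% of all genes called). At day 5 against day 0 edgeR called 0 of the 9, with 3 at an unadjusted p under 0.05 (19.7% of all genes) and 2 called by DESeq2 (6.77% of all genes), beside edgeR's share over all genes (0.502% of all genes called, 0.21% as higher and 0.292% as lower). At day 7 against day 0, Tfpi2 rose, Pf4 and F13a1 fell and 6 did not pass (7.05% of all genes called, 3.1% as higher and 3.94% as lower). The median log2 fold change of the 9 was 0.38, 0.25, 0.07 and 0.06 in these 4 comparisons, beside medians over all genes within 0.02 of 0.

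**Figure D1:**
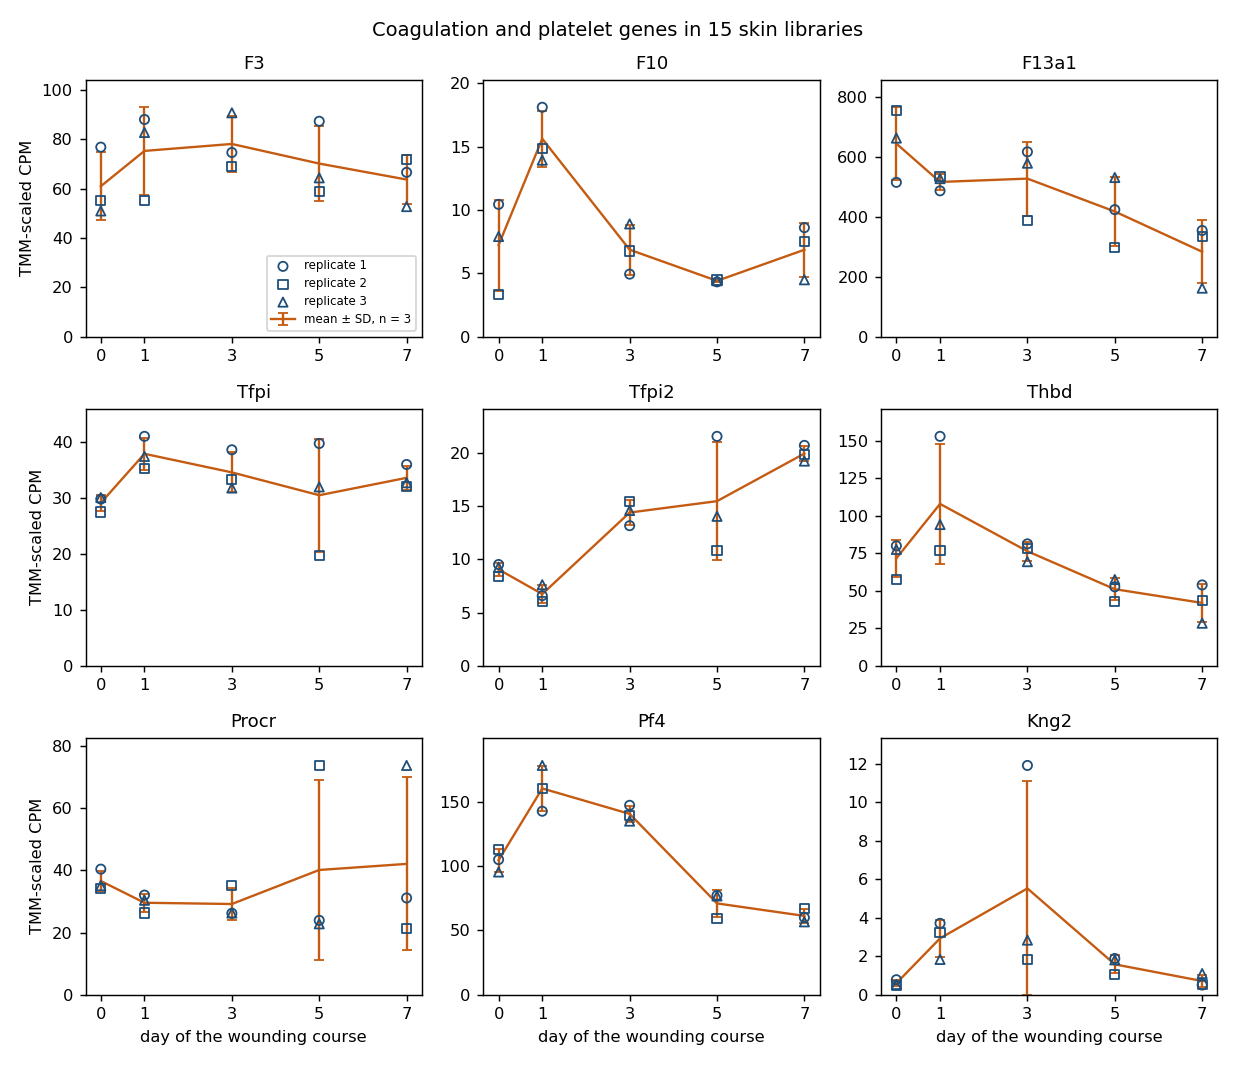
TMM-scaled CPM of each of the 9 genes (vertical axes, each starting at 0) against the day of the course (horizontal axes). Open symbols are libraries, marked by replicate number, and the line and bars give mean ± SD of 3 libraries. Pf4 is highest at day 1 (142.7 to 178 CPM) and lowest at day 7 (56.7 to 67.3 CPM), Tfpi2 is highest at day 7, and Procr stands at 73.6 and 73.7 CPM in 1 library each of day 5 and day 7.

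**Figure D2:**
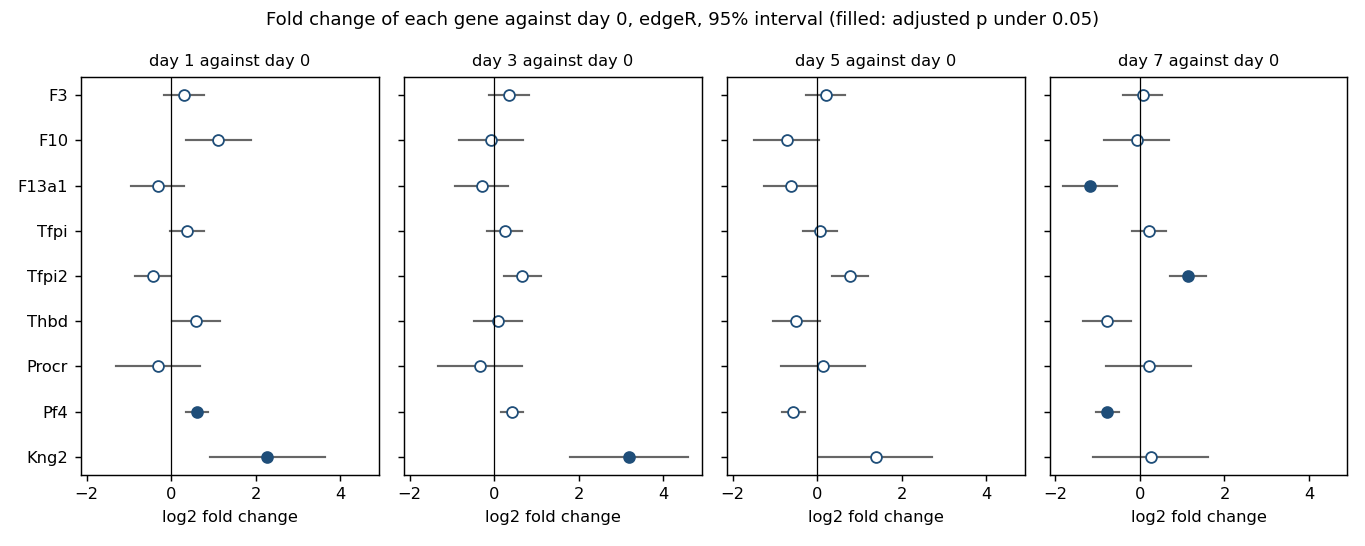
Log2 fold change of each gene against day 0 (horizontal axes) from the edgeR fit, with 95% intervals as lines. Filled circles mark genes called at an adjusted p under 0.05. They are Pf4 and Kng2 at day 1, Kng2 at day 3, no gene at day 5, and F13a1, Tfpi2 and Pf4 at day 7.

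In single steps of the course 1 call was made. Pf4 fell at day 5 against day 3, where 0.0233% of all genes were called, and 8 of the 9 did not pass. For day 3 against day 1 and for day 7 against day 5 edgeR called 0 of the 9 (0.00584% of all genes called in each), with 2 and 0 at an unadjusted p under 0.05 (12.8% and 9.18% of all genes), and DESeq2 called 2 and 0 (2.74% and 0.893% of all genes). Libraries of both times were apart for more genes than were called: at day 1, all 3 libraries lay above all 3 of day 0 for 4 of the 9 (19.8% of all genes) and below for 2 (18% of all genes). At day 7 they lay above day 0 for 2 (13.9%) and below for 3 (15.3%), so libraries apart from day 0 were common among all genes too. The day 5 libraries lay above those of day 3 for 0 of the 9 (9.72% of all genes) and below for 3 (11.9%), and those of day 7 above those of day 5 for 1 (5.68%) and below for 0 (5.46%).

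F3, tissue factor, was not called in any comparison. It stood at 76.9, 55.2 and 51.0 CPM in the day 0 libraries, 88.1, 55.1 and 82.8 at day 1, 74.7, 69.0 and 90.8 at day 3, 87.35, 58.8 and 64.4 at day 5, and 66.6, 71.8 and 52.7 at day 7. The ranges of all 5 times overlapped, and each neighbour in the order of means (day 3, 1, 5, 7 and 0) differed from the next by less than the larger of their SDs. The highest mean was 1.28 times the lowest. At day 1 against day 0 the log2 fold change was 0.30 ± 0.22 (SE, adjusted p = 0.392), with a 95% interval of -0.17 to 0.78, and at day 7 it was 0.06 ± 0.22 with an interval of -0.41 to 0.53. With replicates 2 and 3 of day 0 left out, the sign turned at day 1, 5 and 7 (-0.02, -0.12 and -0.25).

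F10, the zymogen of the protease that makes thrombin, had its highest mean at day 1. It stood at 10.4, 3.34 and 7.90 CPM at day 0, 18.1, 14.8 and 13.9 at day 1, 4.93, 6.76 and 8.90 at day 3, 4.32, 4.48 and 4.41 at day 5 and 8.60, 7.49 and 4.49 at day 7. All day 1 libraries lay above all others, and the day 5 libraries lay close together at the low end of the course. The mean was 15.6 ± 2.20 CPM at day 1 against 7.23 ± 3.60 at day 0 (SD, n = 3), a log2 fold change of 1.11 ± 0.35 (SE) that did not pass (adjusted p = 0.0712). The mean at day 3 was 6.86 ± 1.98 CPM, with a log2 fold change of -1.19 ± 0.35 against day 1 that did not pass either (adjusted p = 0.214). In the order of means (day 1, 0, 3, 7 and 5), day 1 and 0 and day 7 and 5 differed by more than the larger SD, and day 0, 3 and 7 did not. The call over time was lost without day 1 replicate 1, 2 or 3 (adjusted p = 0.0967, 0.0732 and 0.0545) and without day 5 replicate 1 or 3 (0.055 and 0.0534). Without day 0 replicate 1, which held the highest day 0 value, the day 1 difference passed (log2 fold change 1.47, adjusted p = 0.0252).

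F13a1, the catalytic chain of the fibrin cross-linking enzyme, had its highest mean at day 0 and its lowest at day 7. It stood at 514, 754 and 662 CPM at day 0, 486, 534 and 526.5 at day 1, 616, 386 and 578 at day 3, 423, 298 and 530.2 at day 5 and 354, 333.5 and 161.5 at day 7. Means lay in the order day 0, 3, 1, 5 and 7, and of the neighbours only day 5 and day 7 differed by more than the larger SD, with ranges that still overlapped. The mean was 283 ± 106 CPM at day 7 against 643 ± 121 at day 0 (SD, n = 3), so F13a1 fell 2.27-fold, by 1.19 ± 0.29 on the log2 scale (SE, adjusted p = 0.0331), with all day 7 libraries below all day 0 ones. The fall did not pass without day 0 replicates 2 or 3 (-1.06 and -1.15, adjusted p = 0.108 and 0.0881) or without day 7 replicates 2 or 3 (-1.32 and -0.90, adjusted p = 0.0589 and 0.0861). Its lowest value stood in day 7 replicate 3, the library highest in hair follicle keratins. In GENCODE M21, 74 bases of its exons lie opposite an antisense gene, Gm30489, and the strand setting of the counting is not given in the sources used here.

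Resident macrophage markers were lower at the end of the course, as F13a1 was. Summed over 7 genes (Timd4, Lyve1, Folr2, Cd163, Mrc1, Cd209f and Cbr2), day 0 libraries held 1238 to 1345 CPM, day 1 libraries 1314 to 1382, day 3 libraries 947 to 1222, day 5 libraries 505 to 990 and day 7 libraries 338 to 609. Against day 0, 3 of the 7 fell at day 1 and 1 at day 3 (3.36% and 0.193% of all genes called as lower). At day 1 0 were called as higher (4.22% of all genes), but Mrc1 and Lyve1 lay above day 0 in all libraries (19.8%). Mrc1 stood at 664 to 718 CPM against 510 to 541.5, and Lyve1 at 97.2 to 141.7 against 50.5 to 96.6. At day 5 2 fell, and at day 7 all 7 did (0.292% and 3.94% of all genes). Among those that fell at day 7 were Mrc1, the mannose receptor, with 274 CPM at day 7 against 529 CPM at day 0, and Cbr2, a carbonyl reductase, with 66.9 against 198 CPM. General macrophage and monocyte markers (6 genes) summed to 1622 to 2724 CPM at day 7 against 2132 to 3578 at day 0, and 3 of them fell (3.94% of all genes). In bulk skin, fewer cells of a type and less RNA per cell cannot be told apart, and the part of these cells in the fall of F13a1 was not tested.

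Among the inhibitors, Tfpi was not called and Tfpi2 rose. Tfpi, the inhibitor of the tissue factor complex, stood at 29.9, 27.5 and 30.1 CPM at day 0, 41.1, 35.3 and 37.5 at day 1, 38.7, 33.4 and 31.8 at day 3, 39.8, 19.8 and 32.03 at day 5 and 36.05, 32.1 and 32.8 at day 7. All libraries of day 1, 3 and 7 lay above those of day 0, and the lowest value of the course was day 5 replicate 2, high in hair follicle keratins. At day 1 the mean was 37.96 ± 2.92 CPM against 29.2 ± 1.42 at day 0 (SD, n = 3), a log2 fold change of 0.38 ± 0.19 (SE) that did not pass (adjusted p = 0.212, 95% interval -0.03 to 0.79). Without the libraries high in hair follicle keratins (day 5 replicate 2 and day 7 replicate 3) it passed, at 0.38 (adjusted p = 0.0297). No neighbours in the order of its means (day 1, 3, 7, 5 and 0) differed by more than the larger SD.

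Tfpi2 was the only one of the 9 genes called as higher at day 7 than at day 0. It stood at 9.53, 8.40 and 9.27 CPM at day 0, 6.60, 6.01 and 7.63 at day 1, 13.2, 15.5 and 14.6 at day 3, 21.6, 10.8 and 14.1 at day 5 and 20.7, 19.9 and 19.3 at day 7. The day 1 libraries were below all others, and the libraries of day 3, 5 and 7 were above all of day 0. The mean was 20.0 ± 0.74 CPM at day 7 against 9.07 ± 0.59 at day 0 (SD, n = 3), so Tfpi2 rose by 1.14 ± 0.20 on the log2 scale (SE, adjusted p = 0.0105), and the call was made in each of the 6 fits that left out 1 library of these times. At day 3 against day 1 the log2 fold change was 1.095 ± 0.20 with no overlap (adjusted p = 0.0807), and at day 5 against day 0 it was 0.77 ± 0.20 (adjusted p = 0.0808). Without day 5 replicate 2, the lowest of its time, the day 5 difference passed (0.97, adjusted p = 0.033). In the order of means (day 7, 5, 3, 0 and 1), day 3 and 0 and day 0 and 1 differed by more than the larger SD, and day 7, 5 and 3 did not. Its fold change at day 1 against day 0 was -0.43 ± 0.20 (adjusted p = 0.186), while Tfpi had 0.38, and the difference between the 2 inhibitors was not tested.

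Of the 2 genes of protein C activation, Thbd was called over time and Procr was not, and the difference between them was not tested. Thbd, thrombomodulin, stood at 80, 57.4 and 77.6 CPM at day 0, 153, 76.7 and 94.2 at day 1, 81.3, 78.4 and 69.4 at day 3, 52.65, 43.1 and 57.5 at day 5 and 53.9, 43.5 and 28.35 at day 7. Its highest library was day 1 replicate 1, and all day 7 libraries lay below all day 0 ones. The mean was 41.9 ± 12.9 CPM at day 7 against 71.7 ± 12.4 at day 0 (SD, n = 3), a log2 fold change of -0.77 ± 0.26 (SE) that did not pass (adjusted p = 0.086). At day 1 the mean was 108 ± 40 CPM, a log2 fold change against day 0 of 0.59 ± 0.26 (adjusted p = 0.166). Only day 0 and day 5 differed, among neighbours in the order of means (day 1, 3, 0, 5 and 7), by more than the larger SD. The call over time was lost without day 7 replicate 2 (adjusted p = 0.0546), and the difference at day 7 passed without day 7 replicate 1 (-0.998, adjusted p = 0.0429). Endothelial markers (8 genes) summed to 370 to 394 CPM in day 0 libraries, 380 to 518 in day 1, 545 to 741 in day 3, 315 to 613 in day 5 and 315 to 421 in day 7 libraries. Of the 8, 0 were called at day 1, 3, 5 or 7 against day 0 (7.58%, 0.788%, 0.502% and 7.05% of all genes). Their median log2 fold changes were 0.31, 0.80, 0.47 and -0.05. The part of endothelial or of any other cells in the course of Thbd was not tested.

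Procr, the endothelial protein C receptor, stood apart in 2 libraries. It stood at 40.4, 34.3 and 35.1 CPM at day 0, 32.04, 26.3 and 30.4 at day 1, 26.2, 35.0 and 26.3 at day 3, 23.9, 73.6 and 22.8 at day 5 and 31.1, 21.4 and 73.7 at day 7. The values of 73.6 and 73.7 CPM are day 5 replicate 2 and day 7 replicate 3, and the other 13 libraries lay between 21.4 and 40.4 CPM. These are the libraries with 9043 and 11220 CPM of hair follicle keratins, while day 0 replicate 3, at 1113 CPM of these keratins, had 35.1 CPM of Procr. With all libraries, day 7 had 42.1 ± 27.8 CPM against 36.6 ± 3.33 at day 0 (SD, n = 3), a log2 fold change of 0.20 ± 0.46 (SE, adjusted p = 0.796). Without the 2 libraries the sign turned, to -0.48 at day 7 and -0.65 at day 5 against day 0 (adjusted p = 0.139 and 0.0828). All day 1 libraries lay below all day 0 ones, with a log2 fold change of -0.31 ± 0.46 (adjusted p = 0.716), and this was the only pair of neighbours in the order of means (day 7, 5, 0, 1 and 3) apart by more than the larger SD. The part of hair follicle tissue in the Procr values was not tested.

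**Figure D3:**
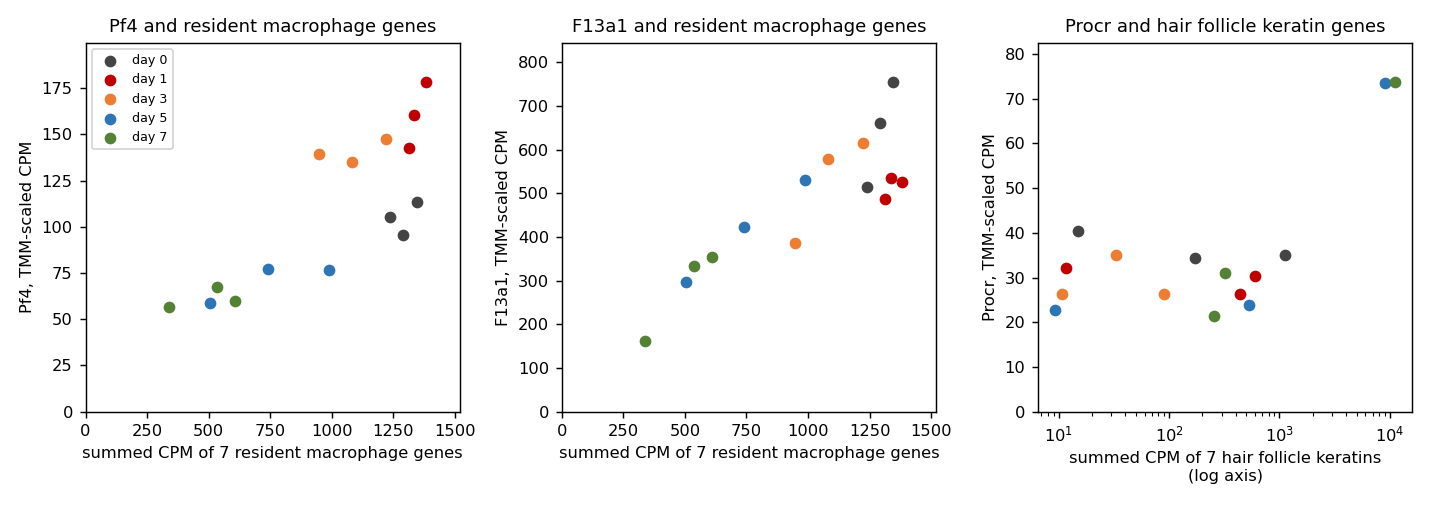
TMM-scaled CPM of Pf4, F13a1 and Procr (vertical axes, from 0) against the summed CPM of 7 resident macrophage genes (left and middle) or of 7 hair follicle keratins (right, log axis) in the same library. Each point is 1 of 15 libraries, coloured by time. Pf4 is higher at day 1 than at day 0. The macrophage sums of these times overlap, though single genes in them differ in both directions. F13a1 and the macrophage sum are both low at day 7, and Procr stands apart in the 2 libraries with the highest hair keratin sums.

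Pf4, the platelet chemokine, rose early and then fell below its first level. It stood at 105, 113 and 95.5 CPM at day 0, 142.7, 160.3 and 178 at day 1, 147, 139.6 and 135 at day 3, 77.3, 59.0 and 76.8 at day 5 and 59.98, 67.3 and 56.7 at day 7. All libraries of day 1 and 3 lay above, and all of day 5 and 7 below, the day 0 libraries. The mean was 160.4 ± 17.8 CPM at day 1 against 105 ± 8.87 at day 0 (SD, n = 3), a rise of 0.62 ± 0.12 on the log2 scale (SE, adjusted p = 0.016) or 1.53-fold. It was 61.3 ± 5.403 CPM at day 7 against 105 ± 8.87 at day 0, a 1.71-fold fall (log2 fold change -0.77 ± 0.12, adjusted p = 0.00886). It fell 1.98-fold at day 5 (71.05 ± 10.4 CPM) against day 3 (140.6 ± 6.18 CPM), by 0.99 ± 0.12 on the log2 scale (adjusted p = 0.0224). At day 3 and day 5 against day 0 the log2 fold changes were 0.43 ± 0.12 and -0.56 ± 0.12 and did not pass (adjusted p = 0.119 and 0.0613). In the order of means (day 1, 3, 0, 5 and 7), only day 5 and day 7 differed by less than the larger SD.

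The fall of Pf4 at day 7 was called in each of the 6 fits that left out 1 library. The rise at day 1 did not pass without day 0 replicates 2 or 3 (adjusted p = 0.0684 and 0.0676) or day 1 replicates 2 or 3 (0.0513 and 0.0541), with log2 fold changes of 0.54 to 0.69 over the 6 fits. The fall at day 5 against day 3 did not pass without day 3 replicate 1 or 2 (0.07 and 0.132) or day 5 replicate 1, 2 or 3 (0.0788, 0.0648 and 0.0862), with log2 fold changes of -1.05 to -0.86. Some defining platelet transcripts were at or near 0 in all libraries, and are named here for that reason, outside the naming rule. Gp6, Gp9, Treml1 and Tubb1, a receptor, a glycoprotein, a receptor-like protein and a tubulin of platelets and their precursors, were at most at 0.0596, 0.205, 0.184 and 0.205 CPM in any library. Gp6 was at 0 in 12 of 15 libraries, Treml1 in 2, Gp9 in 1 and Tubb1 in 0. The platelet and megakaryocyte list (10 genes) gave sums of 13.2 to 18.6 CPM in day 0 libraries, 26.5 to 28.6 in day 1, 15.8 to 24.9 in day 3, 12.2 to 15.9 in day 5 and 12.5 to 15.2 in day 7 libraries. Ppbp and the integrin chain Itga2b, at up to 17.2 and 11.7 CPM, were its highest genes. The mean of Ppbp was 15.4 CPM at day 1 against 1.65 at day 0, and that of Itga2b was 8.53 against 9.92 CPM. Of the 6 that were tested 1 (Ppbp) rose at day 1 (4.22% of all genes called as higher). Also outside the naming rule, Gp1bb, Gp1ba and Clec1b of this list were found in every library. They stood at 1.55 to 3.9, 0.405 to 1.09 and 0.278 to 0.553 CPM. Red blood cell genes (6 genes), a sign of blood in the tissue, summed to 203 to 1003 CPM at day 0 and 596 to 969 at day 1. At day 3, 5 and 7 the sums were 441 to 666, 333 to 862 and 171 to 364 CPM. The ranges of day 1 and of day 7 each overlapped that of day 0. Of the 6, 0 were called at day 1 or day 7 against day 0 (7.58% and 7.05% of all genes). Their median log2 fold changes were 0.47 and -1.27. Resident macrophage genes, given above, overlapped between day 1 and day 0 in their sum and were lowest at day 7. Within that sum Mrc1 and Lyve1 stood higher at day 1 without a call, and 3 genes fell. The part of any of these cells in the course of Pf4 was not tested.

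Kng2, the kininogen, was low throughout and rose at day 1 and day 3. It stood at 0.783, 0.481 and 0.536 CPM at day 0, 3.71, 3.24 and 1.83 at day 1, 11.9, 1.82 and 2.84 at day 3, 1.88, 1.04 and 1.81 at day 5 and 0.505, 0.537 and 1.102 at day 7. All libraries of day 1, 3 and 5 lay above those of day 0, the value of 11.9 CPM (707 counts) in day 3 replicate 1 stood far above the rest, and the day 7 libraries overlapped those of day 0. The rise at day 1 was 2.28 ± 0.63 on the log2 scale (SE, adjusted p = 0.047), with 2.93 ± 0.98 CPM against 0.600 ± 0.161 at day 0 (SD, n = 3). At day 3 it was 3.19 ± 0.65 (adjusted p = 0.0454), with 5.52 ± 5.55 CPM. Without day 3 replicate 1 the day 3 change was 1.95 and did not pass (adjusted p = 0.135). It did not pass either without day 0 replicates 2 or 3 (0.236 and 0.169) or day 3 replicates 2 or 3 (0.0946 and 0.0512). The day 1 rise did not pass without day 0 replicates 2 or 3 (0.187 and 0.155) or day 1 replicate 1, 2 or 3 (0.128, 0.109 and 0.0651), and its call over time was made in each of the 15 fits that left out 1 library.

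Kng2 has a close copy, Kng1, which also encodes a kininogen. In GENCODE M21 transcripts 30.6% of the 31-base words of Kng2 also occur in Kng1, so reads can be shared between them and the level of Kng2 is uncertain. Kng1 was at most at 0.473 CPM in any library and at 0 in 1 of them, and in day 3 replicate 1 it stood at 0.236 CPM beside 11.9 CPM of Kng2. For the other 8 genes at most 4.08% of the words (F10) occur in another gene, and for F3, Tfpi2, Thbd, Procr and Pf4 none does. Liver genes (Alb, Apoa1, Ttr and Fgb) summed to at most 17.4 CPM, in day 1 replicate 2, and to 1.73 CPM in day 3 replicate 1.

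Of 51 other coagulation and platelet genes, all were in the tables and 36 were tested. The 15 that were not tested stood at 0.608 CPM or less in each library, among them the fibrinogen chains Fga, Fgb and Fgg, prothrombin (F2), protein C (Proc) and F13b, the carrier chain of factor XIII, which had 0 counts in all 15 libraries. Over the course 7 of the 36 were called (13.9% of all genes), and at day 1 against day 0 5 rose and 1 fell (4.22% and 3.36% of all genes). At day 3 against day 0 1 rose (0.595% of all genes) and at day 7 against day 0 1 fell (3.94% of all genes). At day 5 against day 0 edgeR called 0 (0.502% of all genes), with 9 at an unadjusted p under 0.05 (19.7% of all genes) and 1 called by DESeq2 (6.77% of all genes). The median log2 fold change of the 36 was 0.16 at day 1, 0.26 at day 3, -0.11 at day 5 and -0.10 at day 7, beside -0.01, -0.01, 0.01 and 0.02 over all genes.

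Of the 5 genes that rose at day 1, 3 were on the platelet list (Selp, Ppbp and Pdpn). That list had 13 tested genes, and 4.22% of all genes were called as higher. Of the 3, only Ppbp is among the platelet and megakaryocyte markers given above. Selp, P-selectin, an adhesion receptor of activated platelets and endothelium, was highest at day 1 and 3. It had 41.6, 27.1 and 31.2 CPM at day 1 against 11.1, 8.98 and 9.27 at day 0 (log2 fold change 1.77 ± 0.25, adjusted p = 0.00635), and 27.7, 31 and 21.2 CPM at day 3 (1.45 ± 0.25 against day 0, adjusted p = 0.0334). Its call over time stood at rank 28 of all genes. Ppbp, the precursor of platelet basic protein, had 15.9, 13.2 and 17.2 CPM at day 1 against 3.80, 0.784 and 0.357 at day 0, a rise of 3.21 ± 0.66 on the log2 scale (adjusted p = 0.0182). Pdpn, podoplanin, the ligand of the platelet receptor encoded by Clec1b, had 298.5, 306 and 148 CPM at day 1 against 115, 33.5 and 35.6 at day 0 (2.03 ± 0.41, adjusted p = 0.0175). Day 0 replicate 1 was the highest day 0 library for all 3 genes, as it was for wound-edge keratins. P2ry12, the platelet ADP receptor, which is also made by some macrophages, fell at day 7, with 12.4, 10.9 and 8.35 CPM against 17.9, 20.9 and 19.8 at day 0 (-0.89 ± 0.22, adjusted p = 0.0333).

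These platelet-list calls varied with single libraries. At day 1, Selp did not pass without day 0 replicate 2 (adjusted p = 0.054). Ppbp did not pass without day 0 replicates 2 or 3, or day 1 replicate 1 (0.0961, 0.0526 and 0.0605). Pdpn did not pass without day 0 replicates 2 or 3, or day 1 replicate 1 or 2 (0.0881, 0.0687, 0.0636 and 0.0563). At day 3, Selp did not pass without day 0 replicates 2 or 3, or day 3 replicate 1 or 2 (0.206, 0.123, 0.12 and 0.142). P2ry12 at day 7 did not pass without day 0 replicates 2 or 3, or day 7 replicates 2 or 3 (0.102, 0.0892, 0.0731 and 0.12). Selp, Ppbp and Pdpn were called over time in each of the 15 fits that left out 1 library, and P2ry12 in 14.

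Of the kinin and thrombin receptors, Bdkrb1 rose at day 1 and F2rl3 changed over the course. Bdkrb1, the inducible kinin receptor, had 3.30, 4.375 and 3.15 CPM at day 1 against 1.081, 0.481 and 0.377 at day 0, a rise of 2.47 ± 0.54 on the log2 scale (adjusted p = 0.0218). Its call was lost without day 0 replicates 2 or 3 (0.114 and 0.0969) or day 1 replicate 1 or 2 (0.0651 and 0.0653), and stood at the threshold without day 1 replicate 3 (0.05). Its call over time (adjusted p = 0.0275) was lost without day 0 replicates 2 or 3 (0.0677 and 0.0605) and without day 1 replicate 1, 2 or 3 (0.0682, 0.0843 and 0.0523). F2rl3, the thrombin receptor PAR4 of platelets, was called over time (adjusted p = 0.0172). It had 1.36, 2.81 and 1.71 CPM at day 3 against 0.336, 0.506 and 0.735 at day 0, a log2 fold change of 1.90 ± 0.40 that did not pass on its own (adjusted p = 0.0507). The other 3 genes listed with it (F2r, F2rl1 and F2rl2, of which F2rl1 is not a receptor for thrombin itself) were not called. The median log2 fold change of this list, F2rl3 included, was 0.02 at day 1 and 0.35, 0.61 and 0.63 at day 3, 5 and 7.

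Among procoagulant genes, 2 were called at day 1, both outside the naming rule and named after their values were seen. Mcfd2, a cargo receptor that carries factors V and VIII out of the endoplasmic reticulum, rose by 0.42 ± 0.11 on the log2 scale (adjusted p = 0.0355), with 137 ± 11.3 CPM against 102 ± 14.8. Vkorc1, the vitamin K reductase needed to make factor X and its relatives, fell by 0.68 ± 0.17 (adjusted p = 0.0341), with 53.5 ± 6.46 CPM against 85.9 ± 8.95 (SD, n = 3). Both calls were made in 1 of 6 fits that left out 1 library, the one without day 0 replicate 1, with adjusted p of 0.0517 to 0.157 for Mcfd2 and 0.0578 to 0.153 for Vkorc1 in the others. Of 7 tested anticoagulant genes, among them protein S (Pros1) and antithrombin (Serpinc1), edgeR called 0 in each comparison with day 0, with 1, 0, 2 and 1 at an unadjusted p under 0.05 at day 1, 3, 5 and 7 (27%, 15.8%, 19.7% and 27.9% of all genes), and DESeq2 called 1, at day 7 (16.5% of all genes). At day 5 against day 0, where no listed gene passed, the smallest p-values were those of F2rl3 (1.49 ± 0.40, adjusted p = 0.0899) and Proz, the vitamin K-dependent protein Z (-1.07 ± 0.38, adjusted p = 0.166). In the single steps edgeR called 0 of the 36, with 7, 4 and 3 at an unadjusted p under 0.05 (12.8%, 15.1% and 9.18% of all genes) and 4, 2 and 1 called by DESeq2 (2.74%, 3.1% and 0.893% of all genes). The smallest p-values were those of F2rl3 (1.92 ± 0.40, adjusted p = 0.104) and Pdpn (-1.49 ± 0.41, adjusted p = 0.183) at day 3 against day 1, Selp (-1.17 ± 0.25, adjusted p = 0.123) and Ppbp (-1.93 ± 0.63, adjusted p = 0.242) at day 5 against day 3, and the constitutive kinin receptor Bdkrb2 (-1.37 ± 0.36, adjusted p = 0.329) and Selp (-0.71 ± 0.25, adjusted p = 0.448) at day 7 against day 5. Gp5, a platelet glycoprotein named after its values were seen, stood at 2.13 and 2.24 CPM in the libraries high in hair follicle keratins, where Procr was high too, and at 0.0253 to 0.22 CPM in the other 13.

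**Figure D4:**
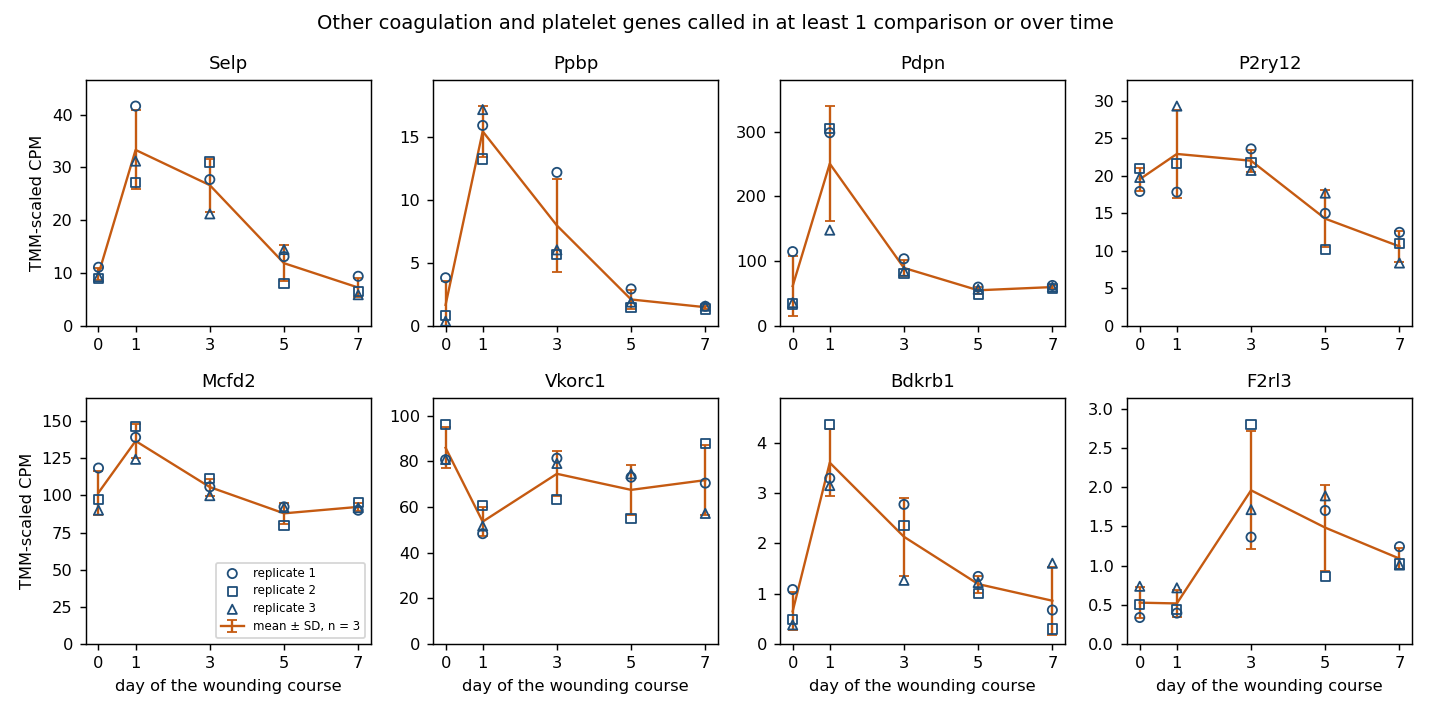
TMM-scaled CPM (vertical axes, from 0) of 8 other coagulation and platelet genes called in a comparison or over time, against the day of the course. Symbols are libraries by replicate number, and the line and bars give mean ± SD of 3 libraries. Selp, Ppbp, Pdpn, Mcfd2 and Bdkrb1 are highest at day 1, F2rl3 at day 3, Vkorc1 is lowest at day 1 and P2ry12 at day 7.

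Genes most alike to each member were ranked by Pearson correlation of log2 CPM over the 15 libraries, which share their time groups, depths and skin make-up, among 12451 genes with a mean of at least 5 CPM (12452 for Kng2). These values are descriptions, and each is the highest of many. For Pf4 they were Tmem8, Nxpe5 and Msrb1 (r = 0.963, 0.96 and 0.96, rho = 0.968, 0.975 and 0.957). For F13a1 they were Stard8, Fcgrt and Adam23 (r = 0.957, 0.951 and 0.938), for Thbd Csf1, Anxa11 and Ceacam1 (0.946, 0.942 and 0.934) and for Tfpi2 Wnt9a, Cthrc1 and Plagl1 (0.94, 0.933 and 0.932). Procr came with Pak4, Mllt1 and Eif2b4 (r = 0.942, 0.935 and 0.931, rho = 0.821, 0.861 and 0.768), over libraries that include the 2 at 73.6 and 73.7 CPM. The closest for F10 were Mdc1, Igf2bp2 and Klf6 (0.9, 0.881 and 0.859) and for Kng2 Pcsk5, Pdlim1 and Cxcl12 (0.9, 0.886 and 0.883). The closest for Tfpi were Rhoc, Cd63 and Adamts4 (0.893, 0.846 and 0.84) and for F3 Prdm16, Tmem154 and Tmprss4 (0.852, 0.847 and 0.845). Spearman's rho of the genes named ran between 0.725 (Cd63 with Tfpi) and 0.975 (Nxpe5 with Pf4). Among the 9 genes themselves the closest pair was Thbd and Pf4 (r = 0.81), followed by F10 and Thbd (0.689) and F13a1 and Thbd (0.666). Tfpi2 ran opposite to Thbd (-0.66), Pf4 (-0.653), F13a1 (-0.54) and F10 (-0.529).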

How the data were processed

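Skin RNA libraries (VAHTS mRNA kit) were read on the HiSeq X-Ten instrument according to the labels. The authors deposited estimated counts per gene symbol as whole numbers, and the submitters' processing notes name kallisto 0.43. Index, genome build, strand setting and the way transcripts were summed into genes: not given in the sources used here. Such counts divide reads that close copies share. Each file held 30307 rows, of which 26 carried dates in place of symbols (at most 0.179% of counts) and were left out.

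Counts were rounded (no value changed), filtered with edgeR 4.0.16 (R 4.3.3, minimum count 10), TMM-scaled and fitted in 1 robust quasi-likelihood model with 5 times as groups. P-values are two-sided for contrasts, adjusted by Benjamini-Hochberg over all genes. Standard errors were derived from fold change and F. Alternatives used DESeq2 1.42.0, other settings or fewer libraries. At 37995791 to 60347424 counts per library, counting error is largest for Kng2 (19 counts in 1 library), and intervals cover the spread between libraries. The code of the fit was also run on simulated counts, with the same set spread for every gene and no outlying libraries. That run checks the code and does not bear on the calls made here.

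The members and lists were chosen with earlier results of these data known. The naming rule takes all 9 members, up to 3 called pathway genes per comparison by fold change (where none, up to 2 by p), the 3 most alike genes, and up to 2 genes per marker list, and genes named outside it were chosen after their values were seen.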

Additional observations from a re-analysis of the deposited data

How the results depend on the processing

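Of the calls over time, 4 to 5 of 9 were made with 1 library left out in turn. The counts of the 9 genes called against day 0 then had ranges of 0 to 3 (day 1), 0 to 1 (day 3), 0 to 1 (day 5) and 2 to 4 (day 7), with 0 to 1 for day 5 against day 3 and 0 for the other steps. Without a filter on low counts, 1 of 9 was called at day 1 and 0 at day 3, against 2 and 1 as reported, since Kng2 just missed (adjusted p = 0.0559 and 0.0501). DESeq2 called 3 at day 3 and 2 at day 5 against day 0, and 2 at day 3 against day 1. Without day 5 replicate 2 and day 7 replicate 3, edgeR called 4 at day 1, 3 at day 3 and 1 at day 5 against day 0, 1 at day 3 against day 1 and 0 at day 5 against day 3 (Pf4, adjusted p = 0.0571). Keeping only replicate 1 of day 0 it called 0 at day 1, 3 and 7, where that lone sample is assumed to vary like the other groups. Scaling by DESeq2-style size factors changed none of the 8 counts of the 9 genes, and called 2 in place of 1 of the 36 listed genes at day 3. Of these 36, DESeq2 called 14 over time and 4 and 3 at day 3 and 7 against day 0, the fit without the 2 libraries high in hair follicle genes 12, 2 and 2, and the replicate block 0 at day 7 (P2ry12, adjusted p = 0.0557). With 1 library left out, 5 to 10 of the 36 were called over time and 0 to 8 (day 1), 0 to 3 (day 3), 0 to 1 (day 5) and 0 to 2 (day 7) against day 0, and with day 0 replicate 1 alone 0 at day 1, 3 and 7. The causes were not tested.

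With the replicate number as a block, which pairs nothing that the labels name (same-numbered libraries had correlations of -0.729 to 0.486 in their deviations from group means, over 0.1 in 13 of 30 pairs, and 7 of 15 libraries correlated best with their own number), 4 of 9 were called over time (F10 at adjusted p = 0.0502), 0 at day 3 against day 0 and 0 at day 5 against day 3. F13a1 at day 7 then had an adjusted p of 0.0586.

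Signs turned only in comparisons in which the gene was not called, among the settings run. With day 0 replicate 1 alone, F3 stood at -0.0172, -0.118 and -0.25 at day 1, 5 and 7 against day 0, F13a1 at 0.0157 and 0.0449 at day 1 and 3, Thbd at -0.0549 at day 3 and Kng2 at -0.0963 at day 7. Without the 2 libraries high in hair follicle genes, F10 stood at 0.152 and Kng2 at -0.212 at day 7, Procr at -0.647 and -0.477 at day 5 and 7 and at -0.321 at day 5 against day 3, and Tfpi at 0.0518 at day 5 against day 3 and -0.0749 at day 7 against day 5. With 1 library left out, the log2 fold change against day 0 had ranges of -0.419 to 0.285 (day 3) and -0.421 to 0.283 (day 7) for F10, -0.0312 to 0.264 (day 7) for F3, -0.2 to 0.495 (day 7) for Kng2, -0.649 to 0.414 (day 5) and -0.468 to 0.519 (day 7) for Procr, -0.171 to 0.299 (day 5) for Tfpi and -0.0448 to 0.179 (day 3) for Thbd. At day 3 against day 1 it ranged from -0.0972 to 0.211 for F13a1, -0.129 to 0.177 for F3, -0.33 to 1.33 for Kng2 and -0.172 to 0.0518 for Procr. At day 5 against day 3 it ranged from -0.315 to 0.739 for Procr, -0.42 to 0.0587 for Tfpi and -0.214 to 0.314 for Tfpi2, and at day 7 against day 5 from -0.234 to 0.0488 for F3, -0.624 to 0.883 for Procr and -0.0705 to 0.378 for Tfpi.

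Over all genes, DESeq2 called 5853 over time against 2380 by edgeR, and 2786, 943, 1160 and 2822 at day 1, 3, 5 and 7 against day 0, where edgeR called 1299, 135, 86 and 1208. Without the 2 libraries high in hair follicle genes edgeR called 3545, 697, 306 and 786, and with day 0 replicate 1 alone 0, 0, 0 and 79. The same settings gave 3828 and 1008 over time. The replicate block gave 862, 78 and 27 at day 1, 3 and 5, and no filter gave 71 at day 3. In the single steps, where edgeR called 1 (day 3 against day 1), 4 (day 5 against day 3) and 1 (day 7 against day 5), DESeq2 called 470, 532 and 153, the fit without the 2 libraries 260, 0 and 0, the block 4, 1 and 0, and day 0 replicate 1 alone 12, 19 and 0. No filter gave 9 at day 5 against day 3.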
